A study of Mus musculus with 2 samples.

Results

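A set of genes for making, taking back and specifying noradrenaline had a median level of 4.22 TPM in the embryonic mouse hindbrain. The median over all protein-coding genes was 5.82 TPM, and Th, at a mean of 8.21 TPM, lay above it. The set held 6 genes, matched by symbol, out of 43346 gene identifiers and 21474 named protein-coding genes. They were Th, Dbh, Pnmt and Gch1, which encode enzymes, Slc6a2, which encodes the noradrenaline transporter, and Phox2a, which encodes a homeodomain transcription factor. Tyrosine hydroxylase mRNA was the most abundant of the 6 in both libraries and Phox2a mRNA the least. Between the pools, Slc6a2 stood 1.89-fold higher in replicate 1, while each enzyme gene was within 1.20-fold of its level in the other pool.

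Hindbrain was dissected from B6NCrl mouse embryos at day 16.5 and pooled over both sexes, with no treatment and no altered allele named in the labels. There were 2 biological replicates of 1 group, each sequenced as 1 library, and replicate 2 was a pool of 37 embryos. The number of embryos in replicate 1 is not given in the labels. Depth was alike, at 42467811 expected counts for replicate 1 against 42017008 for replicate 2. All libraries belong to 1 group, and permuting 2 libraries cannot give a p below 0.5, so values are described without a test. All 8 hindbrain genes looked at (7 Hox genes and Gbx2) reached 1 TPM in both libraries, as did 63.5% of all protein-coding genes. Their presence cannot show that other tissue was left out. Muscle and forebrain markers, given below, were higher in replicate 1. TPM is a relative abundance corrected for transcript length, so levels of different genes can be compared.

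Noradrenaline is made from tyrosine. Tyrosine hydroxylase (Th) sets the rate of the pathway and needs tetrahydrobiopterin, whose synthesis from GTP starts with GTP cyclohydrolase (Gch1). Dopa decarboxylase (Ddc) then makes dopamine, a vesicular transporter (Slc18a2) loads it into vesicles, and dopamine beta-hydroxylase (Dbh) converts it there to noradrenaline. Phenylethanolamine N-methyltransferase (Pnmt) turns noradrenaline into adrenaline, and the plasma membrane transporter (Slc6a2) recovers released noradrenaline. In the hindbrain these genes mark small groups of neurons, the locus coeruleus of the pons and the catecholamine groups of the medulla, some of which make adrenaline. Phox2a is required in the mouse for the locus coeruleus and is also used by visceral and cranial motor neurons.

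In both libraries the authors' model assigned every count of each gene to 1 annotated transcript. The 6 genes had 14 transcripts in the deposited tables, of which 8 had no count in either library. Positions are on GRCm38. The Th gene (ENSMUSG00000000214.6) spans chromosome 7, 142892752 to 142931128, on the minus strand. Its counts lay on Th-201, a coding transcript with 13 exons that starts at 142900014. Transcripts Th-202 and Th-206, which start 31114 and 31106 bases farther upstream, and 3 transcripts marked for nonsense-mediated decay were listed at 0. A count of 0 allows a share of up to 0.792% of the Th counts in replicate 1 and 0.877% in replicate 2, and this limit, like the counting intervals below, covers counting error only. The deposited upper bounds, which also carry the uncertainty of assigning reads to transcripts, were wider. For the 5 Th transcripts at 0 they ran from 0.198 to 1.05 TPM in replicate 1 and from 0.188 to 1.01 TPM in replicate 2, against 8.73 and 7.69 TPM for the gene. Slc6a2 (ENSMUSG00000055368.9, chromosome 8, 92960079 to 93001667, plus strand) was assigned to Slc6a2-201, with 14 exons. Slc6a2-202, which starts 854 bases upstream, was at 0. Dbh (ENSMUSG00000000889.8, chromosome 2, 27165233 to 27183200, plus strand) was assigned to the 12 exons of Dbh-201. Pnmt (ENSMUSG00000038216.7, chromosome 11, 98386450 to 98388181, plus strand) was assigned to the 3 exons of Pnmt-201, and the short noncoding transcripts of Dbh and Pnmt were at 0, with upper bounds of 1.10 and 0.904 TPM in replicate 1. Gch1 (ENSMUSG00000037580.9, chromosome 14, 47153895 to 47189413, minus strand) and Phox2a (ENSMUSG00000007946.10, chromosome 7, 101818313 to 101822726, plus strand) each had 1 transcript in the tables, with 6 and 3 exons. The last 95 bases of Phox2a overlap the end of Inppl1 on the other strand. Inppl1 stood at 5.48 and 4.28 TPM in replicates 1 and 2, and reads of the shared stretch cannot be told apart if counting ignored strand, on which the labels are silent.

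The promoter sequences of 4 of the 6 genes are shown because they hold, or lack, letters of the elements through which such genes are studied. They are RefSeq windows on GRCm38.p6, with 250 bases before the start and 50 from it. Capitals mark matches, on either strand, to TGACG, part of the cyclic AMP response element, and to ATTA, the core bound by homeodomain proteins.
Th, chr7:142899946-142900245, minus strand: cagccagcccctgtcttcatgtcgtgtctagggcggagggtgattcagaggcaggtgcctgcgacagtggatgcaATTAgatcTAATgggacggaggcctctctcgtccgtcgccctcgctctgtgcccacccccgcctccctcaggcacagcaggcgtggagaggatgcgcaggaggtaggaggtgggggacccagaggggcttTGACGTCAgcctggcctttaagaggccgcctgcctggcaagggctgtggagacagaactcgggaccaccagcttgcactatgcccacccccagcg
Dbh, chr2:27165257-27165556, plus strand: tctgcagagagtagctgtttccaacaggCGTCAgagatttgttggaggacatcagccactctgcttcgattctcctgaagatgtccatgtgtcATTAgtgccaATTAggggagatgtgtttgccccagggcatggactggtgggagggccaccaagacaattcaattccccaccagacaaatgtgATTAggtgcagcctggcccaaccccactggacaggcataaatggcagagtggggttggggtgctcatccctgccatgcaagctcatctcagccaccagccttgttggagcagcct
Gch1, chr14:47189364-47189663, minus strand: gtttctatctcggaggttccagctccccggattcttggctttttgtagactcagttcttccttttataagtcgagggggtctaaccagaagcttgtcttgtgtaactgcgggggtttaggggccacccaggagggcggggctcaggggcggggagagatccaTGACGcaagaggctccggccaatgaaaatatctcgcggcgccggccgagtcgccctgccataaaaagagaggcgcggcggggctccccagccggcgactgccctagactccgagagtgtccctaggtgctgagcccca
Phox2a, chr7:101818063-101818362, plus strand: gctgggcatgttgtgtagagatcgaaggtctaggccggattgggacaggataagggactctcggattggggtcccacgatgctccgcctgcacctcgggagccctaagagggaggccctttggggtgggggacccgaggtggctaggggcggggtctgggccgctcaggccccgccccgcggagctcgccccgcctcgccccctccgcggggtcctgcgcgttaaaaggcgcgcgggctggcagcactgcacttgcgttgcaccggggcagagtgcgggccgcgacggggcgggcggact

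The Th window holds the whole palindrome TGACGTCA, whose first base lies 45 bases before the start and which contains TGACG on both strands. Of 32851 promoter windows in the table, 1.79% hold TGACGTCA and 20.8% hold TGACG. The windows of Dbh and Gch1 each hold TGACG once, at 222 and 88 bases before the start, and the Phox2a window does not. ATTA occurs 3 times in the Dbh window, at 157, 147 and 65 bases before the start, and 2 times in the Th window, at 175 and 167 bases. It is in 58% of all windows and in neither the Gch1 nor the Phox2a window. The Phox2a window instead has a GC content of 71.3% and 4 copies of GGGCGG, the GC box, counted on both strands. GGGCGG is in 35.7% of all windows, 2 times in that of Gch1 and once in that of Th. TATAA, the TATA box core, is in 24.9% of windows and, among these 4, in that of Gch1 alone, where it lies 186 bases before the start and overlaps its own match on the other strand. The main transcripts of Gch1 and Phox2a start at the RefSeq start itself, Th-201 starts 19 bases upstream of it, and Dbh-201 is annotated 274 bases upstream of it. The Dbh window therefore begins downstream of the annotated start of Dbh-201. These matches describe letters and are no evidence of binding.

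Th led the set. It had 379 counts and 8.73 TPM in replicate 1, and 342 counts and 7.69 TPM in replicate 2, a mean of 8.21 ± 0.735 TPM (SD, n = 2). That placed it at rank 9773 of 21474 protein-coding genes by mean level. One count was worth 0.0230 TPM in replicate 1 and 0.0225 TPM in replicate 2, so the gene was well above the limit of counting. Dbh, which commits the pathway to noradrenaline, had 302 counts and 4.90 TPM in replicate 1, and 257 counts and 4.07 TPM in replicate 2, a mean of 4.49 ± 0.587 TPM (n = 2). The values of each gene lay close together in the 2 pools, and Th was above Dbh in each.

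Pnmt, the enzyme that sets adrenaline neurons apart from noradrenaline neurons, was present at nearly the level of Dbh. It had 100 counts and 3.78 TPM in replicate 1, and 112 counts and 4.13 TPM in replicate 2, a mean of 3.96 ± 0.247 TPM (n = 2). Its message is short, at 1154 bases, so this level rests on fewer counts than the others except Phox2a. The 95% Poisson interval of its count ran from 81.4 to 122 in replicate 1 and from 92.2 to 135 in replicate 2. Gch1 had 305 counts and 4.54 TPM in replicate 1, and 362 counts and 5.26 TPM in replicate 2, a mean of 4.90 ± 0.509 TPM (n = 2). Since tetrahydrobiopterin also serves serotonin synthesis, Gch1 is not restricted to catecholamine neurons.

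Slc6a2 was the least even of the set. It had 672 counts and 4.48 TPM in replicate 1, and 351 counts and 2.28 TPM in replicate 2, a mean of 3.38 ± 1.56 TPM (n = 2). Replicate 1 was high and replicate 2 low, with deposited intervals of 4.09 to 4.77 and 2.03 to 2.51 TPM that did not overlap. Phox2a was the lowest. It had 56 counts and 1.48 TPM in replicate 1, and 37 counts and 0.95 TPM in replicate 2, a mean of 1.22 ± 0.375 TPM (n = 2). Its deposited intervals, 1.09 to 1.85 and 0.668 to 1.27 TPM, overlapped.

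**Figure D1:**
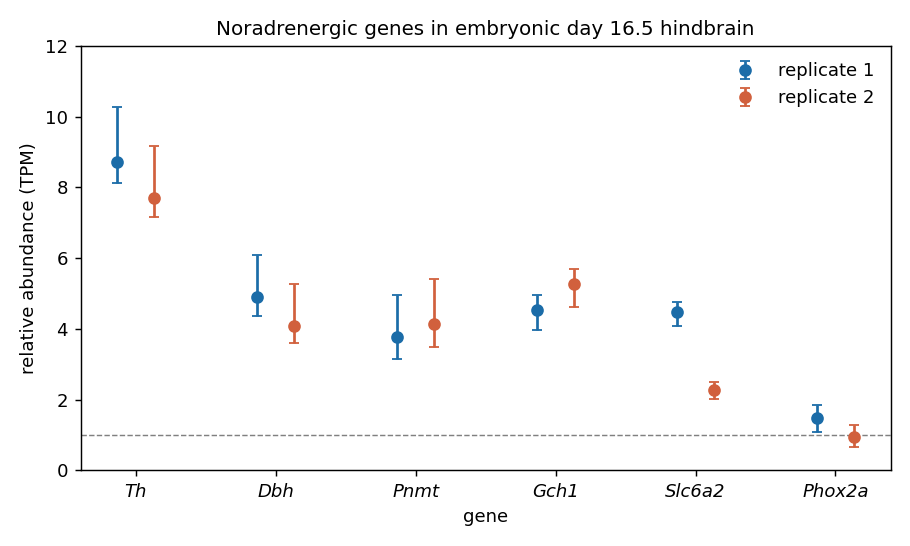
Relative abundance (TPM, y axis) of the 6 noradrenergic genes (x axis) in replicate 1 (blue) and replicate 2 (orange) of hindbrain at embryonic day 16.5. Points are deposited values, bars are the deposited intervals, whose level is not given in the header, and the dashed line marks 1 TPM; only the bars of Slc6a2 do not overlap between the libraries.

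At 1 TPM or more in both libraries were 5 of the 6 genes, against 63.5% of all protein-coding genes. The same share is the background for the counts of detected genes in the lists below. Phox2a missed this limit in replicate 2 by 0.95 against 1 TPM, and all 6 reached 0.5 TPM. The 6 genes had a median level of 4.22 TPM, beside a median of 5.82 TPM over all protein-coding genes. In bulk tissue, few cells of a type and little RNA per cell cannot be told apart, so these levels do not count neurons.

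Within a library, the order of the 6 genes was resolved at its ends and not in its middle. Of 15 pairs, 9 had deposited intervals that did not overlap in either library. Th was above each of the other 5 genes in both libraries, and Phox2a below each of the other 5. The level of Th was 1.78 times that of Dbh in replicate 1 and 1.89 times in replicate 2, a log2 ratio of 0.88 ± 0.06 (SD, n = 2). Th over Gch1 was 1.92-fold in replicate 1 and 1.46-fold in replicate 2, and Th over Pnmt was 2.31-fold and 1.86-fold. Dbh over Phox2a was 3.31-fold and 4.28-fold, and Th over Phox2a was 5.90-fold and 8.09-fold.

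Gch1, Dbh and Pnmt could not be ordered, since the intervals of each of these 3 pairs overlapped in both libraries. Dbh over Pnmt was 1.30-fold in replicate 1 and 0.985-fold in replicate 2, and Gch1 over Dbh was 0.927-fold and 1.29-fold, so both pairs turned their order. The place of Slc6a2 depended on the library. In replicate 1 it lay beside these 3 genes, with intervals that overlapped all of theirs, and in replicate 2 it lay below all of them. Dbh over Slc6a2 was 1.09-fold in replicate 1 and 1.79-fold in replicate 2. Gch1 over Slc6a2 was 1.01-fold and 2.31-fold, and Pnmt over Slc6a2 was 0.844-fold and 1.81-fold. Leaving out either library therefore gives another order of transporter and enzymes.

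**Figure D2:**
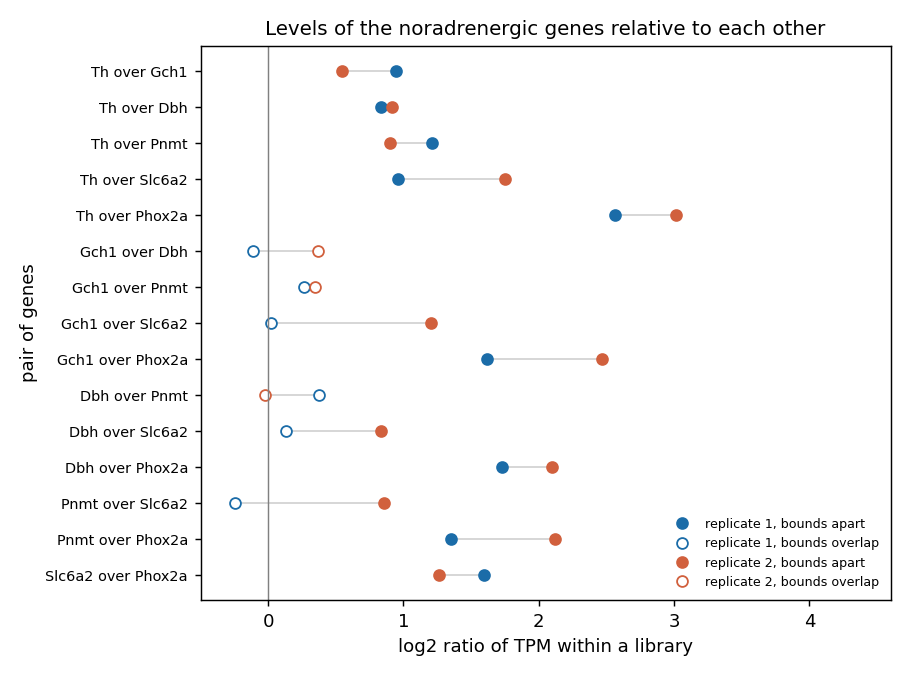
Log2 ratio of TPM within a library (x axis) for the 15 pairs of noradrenergic genes (y axis), in replicate 1 (blue) and replicate 2 (orange), with filled points where the deposited intervals of both genes did not overlap and open points where they did. All pairs with Phox2a and all with Th are filled in both libraries, while Slc6a2 lies near Dbh, Gch1 and Pnmt in replicate 1 and below them in replicate 2.

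Between the pools none of the 6 genes was over 2-fold apart, beside 4.5% of the 16037 genes whose mean reached 1 TPM. Ratios here are of counts scaled with TMM, a normalization that assumes most genes are even. Slc6a2 came nearest to that limit, with a log2 ratio of replicate 2 over 1 of -0.92, or 1.89-fold higher in replicate 1 (95% counting interval 1.66 to 2.16). Of 4681 protein-coding genes with a mean of 1 to 10 TPM, 136 (2.91%) had a ratio as low or lower. Counting both directions, 188 (4.02%) were as far from equality. Slc6a2 was also the only 1 of the 6 whose deposited intervals did not overlap between the pools. Among all genes with a mean of 1 TPM, 19.6% were apart in this way with the higher value in replicate 1, so 1 of 6 is near the background.

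The other genes lay closer. Phox2a was 1.49-fold higher in replicate 1, with a counting interval of 0.972 to 2.33 that includes equality. Dbh was 1.16-fold higher in replicate 1 (0.982 to 1.38) and Th 1.10-fold higher (0.945 to 1.27). Gch1 was 1.20-fold higher in replicate 2 (1.03 to 1.40) and Pnmt 1.13-fold higher (0.856 to 1.497). The intervals of Th, Dbh, Pnmt and Phox2a include equality. The median log2 ratio of the 6 genes was -0.18, beside -0.015 for the 13843 protein-coding genes with a mean of 1 TPM. Scaling by spike-in totals shifts all genes by 0.45 toward replicate 2 and turns the direction of Th, to 0.32, and of Dbh, to 0.23, beside 0.44 for the median of the same protein-coding genes. Under it Slc6a2 stood at -0.47 and Phox2a at -0.13, so 2 of the 6 genes stayed higher in replicate 1.

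**Figure D3:**
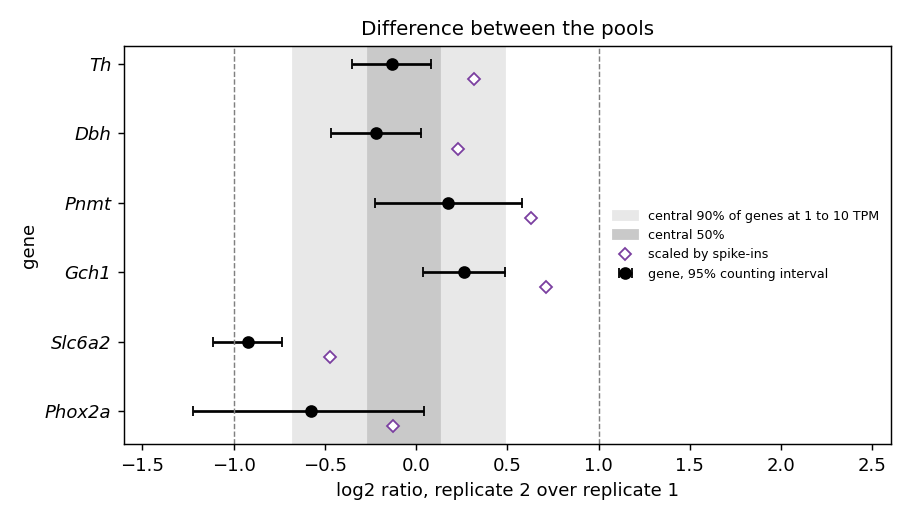
Log2 ratio of replicate 2 over replicate 1 (x axis) for the 6 genes (y axis), with 95% counting intervals as bars, over the central 50% and 90% of 4681 protein-coding genes with a mean of 1 to 10 TPM (grey bands) and the 2-fold limits (dashed). Slc6a2, at -0.92, lies outside the central 90%, and open diamonds show each gene scaled by spike-in totals.

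Markers of other tissues also differed between the pools, and their part in the Slc6a2 difference was not tested. All 4 skeletal muscle markers (Myog, Ckm, Myh3 and Actc1) and all 6 forebrain markers, among them Dlx1, Dlx2 and Six3, were higher in replicate 1. The muscle markers summed to 104 TPM in replicate 1 and 1.77 TPM in replicate 2, and the forebrain markers to 17.7 and 0.36 TPM. The 6 markers of sensory ganglia and Schwann cells summed to 31.0 and 29.6 TPM. Of these the sensory neuron gene Avil had 5.90 and 3.08 TPM, a ratio in the direction of Slc6a2. The 8 hindbrain genes summed to 256 and 282 TPM, most of it from Hoxb5, with 100 and 111 TPM, and Hoxa5, with 72.1 and 88.8 TPM.

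Sympathetic neurons and adrenal chromaffin cells between them express all the enzymes of this pathway, so their markers were set beside the 6 genes. Hand2, a transcription factor of the sympathetic lineage, had 0 counts in both libraries. With 3 counts as the floor in each library, this allows up to 0.0560 TPM of Hand2 in replicate 1 and 0.0546 in replicate 2. Of the 7 markers, 5 reached 1 TPM in both libraries, and the 7 summed to 299 TPM in replicate 1 and 329 in replicate 2, led by the granule proteins Chga and Chgb, which many central neurons also make. Gata3, which sympathetic and some hindbrain neurons share, had 28.4 and 22.8 TPM. Gata2 had 9.64 and 7.96 TPM, Insm1 1.61 and 1.94, and Tbx20 1.34 and 0.92. Hand2, Gata3, Gata2 and Insm1 are also counted among the transcription factors of noradrenergic neurons below. Which cells made the messages of these markers, and whether sympathetic or chromaffin cells contributed to the 6 genes, was not tested.

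Dopamine neurons of the midbrain also express Th. Of their 6 markers, 3 reached 1 TPM in both libraries, and the 6 summed to 27.1 TPM in replicate 1 and 23.2 in replicate 2. The dopamine transporter gene Slc6a3 had 0.40 and 0.47 TPM, and Pitx3, a factor of midbrain dopamine neurons, had 0.68 and 0.17 TPM. Slc6a2 was 11.2-fold above Slc6a3 in replicate 1 and 4.85-fold in replicate 2. Foxa1 had 0.49 and 0.15 TPM. The 3 markers that reached 1 TPM were Nr4a2 with 16.1 and 12.8 TPM, Lmx1a with 5.87 and 5.93, and Aldh1a1 with 3.57 and 3.68. These and Foxa1 are not specific to midbrain dopamine neurons. Whether such neurons contributed to the Th level was not tested.

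Of 4 further genes of noradrenaline synthesis and storage, Ddc, Slc18a2 and Cyb561 reached 1 TPM in both libraries. By their TPM values these lay above all 6 genes, while Slc18a1 lay below them. The deposited intervals of Ddc and Th overlapped in replicate 1, and those of Slc18a1 and Phox2a overlapped in both libraries. The median of the 4 was 12.6 TPM. Ddc, which catecholamine and serotonin neurons share, had 8.89 TPM (replicate 1) and 9.69 TPM (replicate 2), which is 1.02 and 1.26 times the level of Th. Slc18a2, the vesicular monoamine transporter of neurons, had 16.9 and 14.96 TPM, 3.45 and 3.68 times the level of Dbh. Slc18a1, the transporter of chromaffin cells, was 15.2-fold and 24.9-fold lower than Slc18a2, with 1.11 and 0.60 TPM. Cyb561, which supplies electrons to renew the ascorbate that dopamine beta-hydroxylase uses, had 54.8 and 53.4 TPM.

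Pts and Qdpr, genes of later steps of the biopterin cofactor, stood well above Gch1, the gene of its entry enzyme, though not all genes of the list did. All 7 genes of the list reached 1 TPM in both libraries, with a median of 31.1 TPM. Pts, which encodes the enzyme after GTP cyclohydrolase, had 55.8 TPM in replicate 1 and 64.5 in replicate 2, which is 12.3 times the level of Gch1 in each library. Qdpr, which regenerates the cofactor, had 112 and 120 TPM, 24.7 and 22.8 times Gch1. Gchfr, the feedback regulator of GTP cyclohydrolase, had 9.12 and 13.5 TPM, and it was 1.53-fold higher in replicate 2 (counting interval 1.22 to 1.94). Of these 7 genes 3, namely Pts, Pcbd1 and Gchfr, had deposited intervals apart with the higher value in replicate 2, beside 9.91% of all genes with a mean of 1 TPM.

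Clearance genes were all detected, 5 of 5, with a median of 23.7 TPM. The monoamine oxidase gene Maoa had 22.95 TPM in replicate 1 and 24.5 TPM in replicate 2. Maob, the other monoamine oxidase gene, had 4.45 and 5.42 TPM. The low-affinity monoamine transporter gene Slc29a4 had 82.2 and 73.2 TPM, 18.4 and 32.1 times the level of Slc6a2. Slc22a3, another such transporter, had 1.56 and 2.42 TPM. All 5 act in many cell types.

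Transcription factors used in the making of noradrenergic neurons were mostly present, with 9 of 11 at 1 TPM or more in both libraries and a median of 6.66 TPM. The exceptions were Hand2 and Tlx2, a factor of peripheral autonomic neurons, which had 10 and 5 counts. Tlx3, which noradrenergic centres of the hindbrain need in the mouse, had 9.61 TPM in replicate 1 and 7.59 TPM in replicate 2, or 6.49 and 7.99 times the level of Phox2a. Tfap2b, an AP-2 factor of noradrenergic and other neurons, had 53.2 and 33.2 TPM. Of the 9 genes with a mean of 1 TPM, 7 were higher in replicate 1, and 6 of these had deposited intervals apart, beside 19.6% of all genes. Their median log2 ratio was -0.29 by TMM, beside -0.015 for all protein-coding genes with a mean of 1 TPM. Spike-in scaling gave 0.16 for the list, a turn of its sign that the shift of all genes makes, beside 0.44 for the same protein-coding genes. Many of these factors also serve other hindbrain neurons, and Hand2, Gata3, Gata2 and Insm1 are also among the sympathetic and chromaffin markers above.

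Peptides and receptors of noradrenergic and visceral neurons were detected in 8 of 8 cases, beside 63.5% of all protein-coding genes. Their median was 20.5 TPM. Which cells of the tissue made these messages was not tested. Gal, the galanin gene that locus coeruleus neurons express, had 22.03 TPM in replicate 1 and 23.4 in replicate 2. Npy, a cotransmitter of many catecholamine neurons, had 135 and 140 TPM, and Cartpt, a peptide gene of visceral neurons among others, had 21.3 and 26.2 TPM. Calcr, the calcitonin receptor gene expressed in the dorsal medulla, had 7.47 and 5.26 TPM.

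Among the receptors for noradrenaline and adrenaline, 4 of 9 reached 1 TPM in both libraries, with a list median of 0.675 TPM. Adra1b led with 14.1 TPM in replicate 1 and 16.0 in replicate 2, followed by Adra1a with 4.48 and 3.56 TPM. Adra2a, the autoreceptor of noradrenergic neurons, had 3.24 and 2.99 TPM. The 5 receptor genes that missed this limit were below 1 TPM in both libraries, with 11 to 74 counts.

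**Figure D4:**
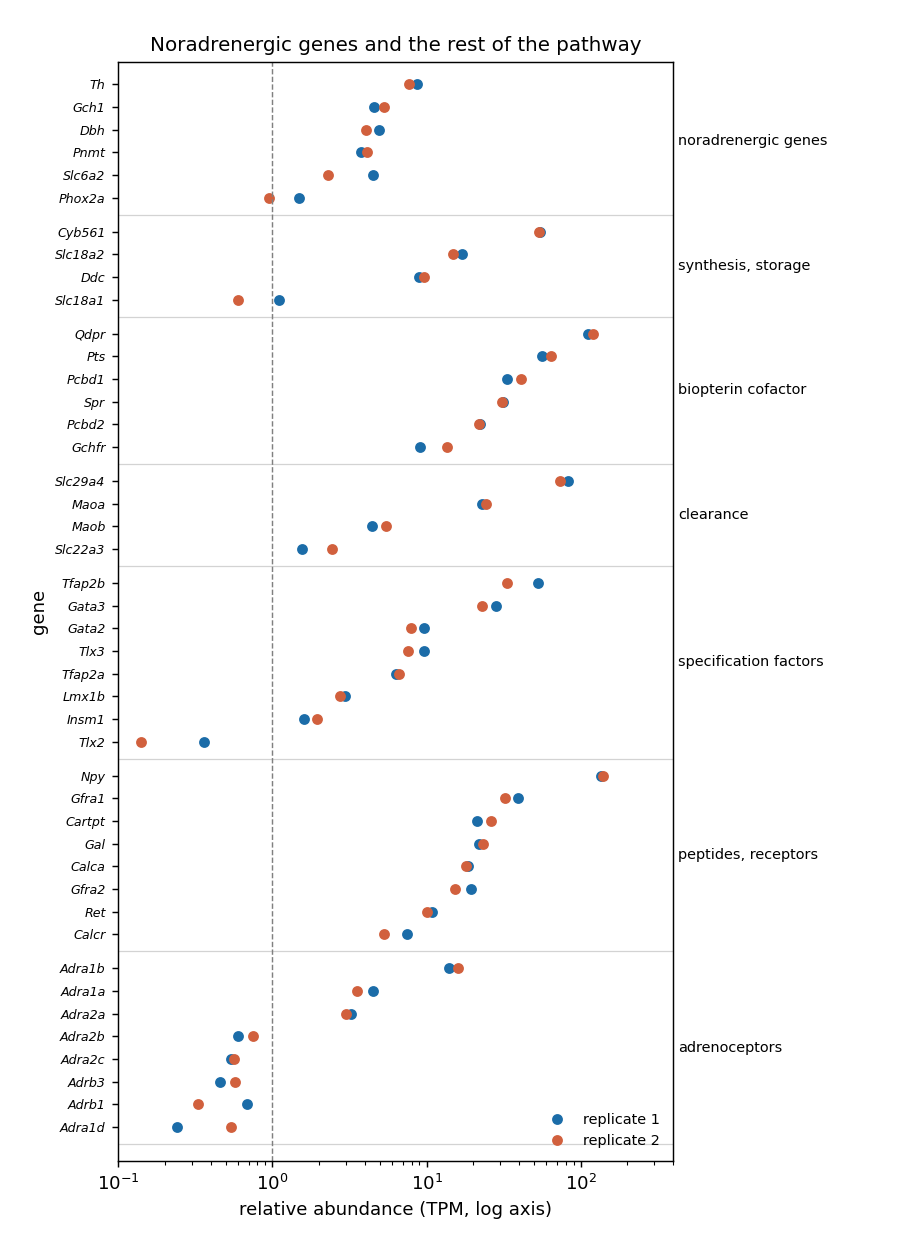
Relative abundance (TPM, log x axis) of the 6 noradrenergic genes and of genes in 6 further lists (y axis, grouped by role) in replicate 1 (blue) and replicate 2 (orange), with the dashed line at 1 TPM. Hand2, listed at 0 in both libraries, and genes whose values are not reported are not drawn; Qdpr, Pts, Pcbd1, Spr and Pcbd2 of the biopterin cofactor list lie above all 6 noradrenergic genes, and 5 adrenoceptor genes lie below 1 TPM.

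Serotonin neurons, the other monoamine neurons of the hindbrain, were used as a point of comparison. Their transporter gene Slc6a4 had 8.69 and 11.7 TPM, which is 1.94 and 5.13 times the level of Slc6a2. Tph2, the hydroxylase of serotonin synthesis, had 9.14 and 11.55 TPM, 1.05 and 1.502 times the level of Th. Slc6a4 and Slc6a2 thus lay in opposite directions between the pools, with Slc6a4 1.39-fold higher in replicate 2 (counting interval 1.25 to 1.55). The difference of these differences has no replicate and was not tested. Of the further serotonin markers, Slc22a3 had 1.56 and 2.42 TPM. Fev did not follow Slc6a4, with 80 counts in each library and 2.72 and 2.44 TPM.

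Likeness in level was measured as the Euclidean distance over log2(TPM + 1) in the 2 libraries, among 44 genes of the 6 further lists. Among the 3 genes nearest to Dbh were Adra1a (distance 0.186) and Maob (0.359). The genes nearest to Th were Tlx3 (distance 0.126), Gata2 (0.136) and Ddc (0.300). With 2 libraries this measures a shared level and no shared pattern.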

How the data were processed

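The authors quantified each replicate against mm10 with GENCODE M4, per the deposited notes, and the sources used here do not name the tool. The expected counts the authors deposited are reads assigned by a model and need not be whole. Deposited TPM values are corrected for effective length and scaled over all features together with the spike-ins. FPKM, also deposited, served as an alternative. The deposited interval bounds on TPM are treated as scores, and their level is not given. For genes with several transcripts the bounds also carry those at 0. The percent of a gene's TPM per transcript is the authors' own. Per the labels, RNA over 200 bases was used, with 10 ng per library.

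Names and positions came from GENCODE M21, joined for 42462 of 43346 identifiers. Rounded counts without spike-ins were scaled by TMM (edgeR 4.0.16 under R 4.3.3), with a prior count of 0.5. The ratio step was tested on simulated data. Counting intervals are exact at 95%. DESeq2 1.42.0 size factors, spike-in totals, other units, other minimums and each replicate left out were tried. Tables were handled in Python 3.11.15. Both libraries were 1 group. They are labelled as biological replicates, and their counts differed by more than counting error (chi-square 23.6 per degree of freedom over 18548 genes), so they were not 1 library deposited 2 times.

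The members and lists were chosen with earlier results of these data known, and the pairs of a member with a gene of another list after their values were seen. Named were all members, genes of the lists and, of the 3 nearest in level to each of Dbh and Th, those whose values are reported, with Inppl1 named after its overlap was seen. Values of some genes of the lists are not reported here, though these genes enter their lists' counts, medians and sums.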

Additional observations from a re-analysis of the deposited data

How the results depend on the processing

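Of 63 levels and ratios recomputed under another unit, scaling, prior count or pseudocount, 57 moved by less than the spread between replicates or stayed inside their counting interval. Another 21 values, from coding transcripts alone, could not move, since all counts lay on coding transcripts. Leaving out a library leaves the other library's own value, which lies within the spread of 2 values by construction in all 56 such values but the counts of detected genes. The log2 ratio of Gch1 over Dbh then ran from -0.11 to 0.37, that of Dbh over Pnmt from -0.02 to 0.37 and that of Pnmt over Slc6a2 from -0.25 to 0.86, so these 3 pairs changed order. Scaling by spike-in totals put the log2 ratio of replicate 2 over 1 at 0.32 for Th, 0.23 for Dbh, 0.71 for Gch1, 0.63 for Pnmt and -0.47 for Slc6a2, so Th and Dbh changed side. By its construction this scaling follows the spike-in counts, 924614 in replicate 1 and 670036 in replicate 2. The deposited posterior mean TPM put Pnmt at 4.22 against 3.96 TPM, and the cause was not tested. DESeq2 size factors, deposited TPM or FPKM ratios, a prior count of 2 and a scaling over genes with 10 counts in both libraries left all 6 ratios inside their counting intervals. With a minimum of 0.5 TPM all 6 genes were detected, and with 2 TPM 5 were. Without replicate 1 the count was 5 and without replicate 2 it was 6. Of the adrenoceptors 6 reached 0.5 TPM and 3 reached 2 TPM, against 4 at 1 TPM. No paired analysis was possible because there was 1 group. With 37 to 672 counts per gene and library, depth limits Phox2a and Pnmt most.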
